A study of Mus musculus with 96 samples.

Results

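The intact C57Bl6 copy of mouse chromosome 4 was followed from 3 viewpoints that lie on either side of a 4.328 Mb segment, in cells whose other copy either lacks that segment or is whole. The measurements came from 12 of the 96 samples of the series, namely every C57Bl6 library of the viewpoints 147.9, 148.9 and 155.5, which are named for their position in Mb. Viewpoint 154.9 was set aside when the libraries were chosen, because captured molecules recur between its 129S5E71 and 129S5E117 libraries. There were 4 lines of mouse embryonic fibroblasts (MEFs), and each gave 1 C57Bl6 library at each viewpoint. The engineered deletion Df lies on the 129S5 copy of the lines 129S5E71 (E71 for short) and 129S5E98 (E98), and the intact C57Bl6 copy of these df/+Bl6 cells is written +DBl6. The lines 129S5E117 (E117) and 129S5E118 (E118) carry 2 whole copies, called +129 and +Bl6, and their +Bl6 libraries were the controls. The deletion was made in 129S5SvEvBrd embryonic stem cells, so it is carried in all cells of its lines. The deletion lines came from embryos of Df/Dp male chimeras and C57BL/6J mates. For the controls the authors name F1 +129/+Bl6 crosses. All 4 lines came from embryos at day 13.5 and were used as bulk, confluent cultures at passage 4. Each group is therefore 2 lines (n = 2), and the 3 libraries of a line are not 3 independent cultures. The labelled cell type could not be checked against marker genes, since contacts and not transcripts were counted.

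In circular chromosome conformation capture with paired-end sequencing (PE-4Cseq), cross-linked chromatin is cut with HindIII and ligated, and the fragments joined to 1 chosen fragment, the viewpoint, are amplified and sequenced. One read crosses a strain polymorphism beside the viewpoint and assigns the contact to 1 homologue, and its mate names the captured fragment. Contacts along a chromosome fall off with genomic distance, and the homologous chromosomes of a somatic nucleus usually occupy separate territories. A change on the C57Bl6 copy in cells that lack the segment on the 129S5 copy only would thus be a change in trans, and the comparison of +DBl6 with +Bl6 asks for one. The reads come from many cells, so more cells with a contact and a more frequent contact per cell cannot be told apart.

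The reads that separate the homologues are printed here because every library described here depends on them. Each sequence runs from the genomic part of the reading primer to 20 bases past the polymorphism, is the C57BL/6J reference of build NCBIM37 (mm9), and has the polymorphic base in capitals.
Viewpoint 147.9: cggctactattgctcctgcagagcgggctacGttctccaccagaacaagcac
Viewpoint 148.9: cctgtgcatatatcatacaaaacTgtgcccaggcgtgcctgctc
Viewpoint 155.5: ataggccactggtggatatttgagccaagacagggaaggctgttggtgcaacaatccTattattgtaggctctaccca
The first lies at chr4:147977866-147977917 on the plus strand, in an exon of Masp2, a serine protease of the lectin pathway of complement. The second lies at chr4:148921755-148921798 on the plus strand, in an intron of Ctnnbip1, which encodes an inhibitor of the binding of beta-catenin to TCF proteins. The third lies at chr4:155555379-155555456 on the minus strand, in an intron of Agrn, which encodes the synaptic proteoglycan agrin. The polymorphisms are 2.106 Mb and 1.162 Mb before the interval and 1.144 Mb after it, and that of viewpoint 155.5 is 0.075 Mb from the end of the chromosome.

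The interval spans chr4:150083826-154411694 and holds 1108 HindIII fragments and the starts of 47 protein-coding genes. They include Errfi1, a feedback inhibitor of EGF receptor signalling, Park7, which encodes the protein DJ-1, the period gene Per3, the transcription factor genes Camta1, Prdm16 and Trp73, the chromatin remodeller gene Chd5, and the basic helix-loop-helix genes Hes2, Hes3 and Hes5. The 2 Mb before it, called the upstream flank, held 25 such starts, and the downstream flank from its end to the end of the chromosome held 52.

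The 12 libraries held between 79030 and 2290435 reads on chromosome 4, of which 33.1% to 84.9% lay within 20 kb of the viewpoint fragment and were left out. Outside that zone, the number of different fragments captured was lower in +DBl6 than in +Bl6 in 6 of 6 pairs of lines of 1 purification batch (E71 with E117, E98 with E118), although the groups overlapped at viewpoints 147.9 and 148.9. At viewpoint 147.9 these were 1994 and 6604 fragments in E71 and E98 against 4931 and 6944 in E117 and E118. At viewpoint 148.9 they were 1483 and 3403 against 3337 and 3804, and at 155.5 they were 3407 and 5211 against 5534 and 6134. E71 was the lowest of the 4 lines at each viewpoint. Between C57Bl6 libraries of different lines, the reads of shared fragments over 1 Mb from the viewpoint correlated at 0.0697 to 0.292 on a log scale over 18 pairs, which gave no sign of 1 library deposited again.

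From all 3 viewpoints, the share of reads that fell in the interval did not differ between +DBl6 and +Bl6 beyond the spread between lines. At viewpoint 147.9 the interval received 7.73% and 6.59% of the reads in E71 and E98, and 7.31% and 7.71% in E117 and E118. Here the groups overlapped, and the E71 value lay within its counting error of E118. At viewpoint 148.9 the shares were 3.33% and 1.93% against 2.91% and 2.79%. E71 was again the highest of the 4 and E98 the lowest. At viewpoint 155.5 they were 11.2% and 11.0% against 12.3% and 11.4%, and both +DBl6 values lay below both controls. The exact two-sided permutation p over lines was 1.00, 1.00 and 0.333, and 0.333 is the smallest that 2 lines against 2 can give. The Wilson 95% intervals of these shares, which cover counting error only, were at most as wide as the 7.47% to 8.00% of E71 at viewpoint 147.9, the library with fewest reads.

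Across the 3 viewpoints, the interval share in +DBl6 was 0.926 times that in +Bl6, with a 95% interval of 0.779 to 1.10 (limma on log2 shares of 9 regions, adjusted p = 0.517, lower in 4 of 6 same-batch pairs). The pooled PCR products of the viewpoints had been purified with a column kit for E71 and E117 and with magnetic beads for E98 and E118. The column pair gave a mean log2 difference of 0.05 and the bead pair one of -0.27. The change did not differ between viewpoints (F test of the genotype by viewpoint terms in limma, adjusted p = 0.95). The sign depended on E98, since without that line the log2 difference was 0.06. With 100 kb around the viewpoint left out it was 0.01. It also turned when each captured fragment counted once whatever its reads, to a log2 difference of 0.25 with an adjusted p of 0.0788.

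**Figure D1:**
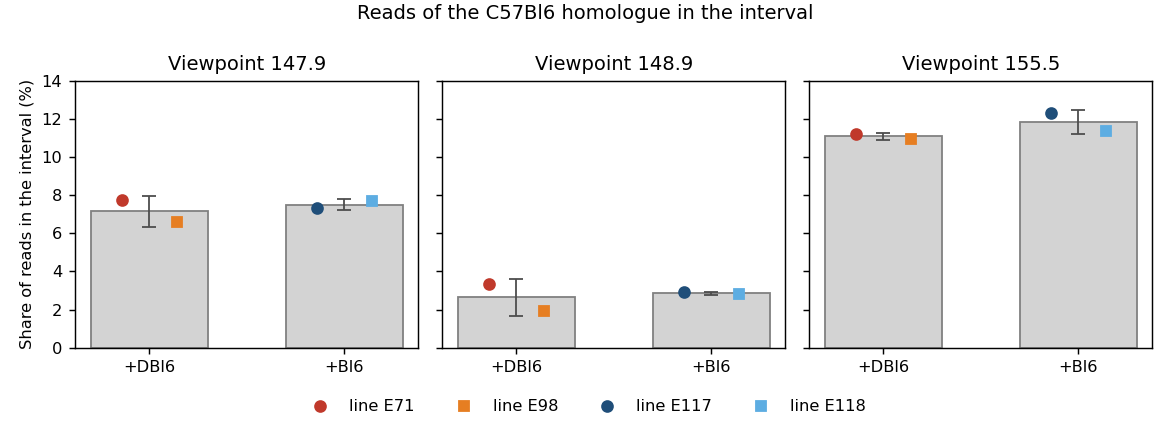
Share of C57Bl6 reads in the interval (percent of reads over 20 kb from the viewpoint fragment) for the +DBl6 and +Bl6 lines at each viewpoint, with points for the 4 lines, bars for the mean of 2 lines and error bars for the SD. The groups overlap at viewpoints 147.9 and 148.9, and at 155.5 the +DBl6 lines lie at 11.2% and 11.0%, below 12.3% and 11.4% in +Bl6.

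A few reads of the deleted copy lie in the interval as well, where Df holds no sequence. In the Df libraries of E71 and E98 the interval reads were 1.54% to 10.7% of those in the +DBl6 library of the same line, with the highest value in E98 at viewpoint 148.9. In the control lines the +129 libraries held 83.6% to 113% of the interval reads of +Bl6. Reads assigned to the wrong homologue may thus be present in both directions. The 129S5 library of the same line held at least 10 times the reads at 5.42% to 18.4% of the captured C57Bl6 fragments, which carried 0.313% to 1.19% of the reads. With these fragments set to 0, the log2 difference of the interval share was -0.10 against -0.11 before.

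Along the interval, no part of it changed in all viewpoints together. The interval was divided into 10 equal pieces of 432.8 kb, numbered from its start. From viewpoint 155.5 the shares were higher towards the near end in all 4 lines, from 0.703% and 0.750% in E71 and E98 and 0.812% and 0.734% in E117 and E118 in piece 1, to 2.26%, 2.07%, 2.47% and 1.98% in piece 10, which holds Prdm16 and Hes5. The log2 differences between the groups at this viewpoint ran from -0.31 to 0.12, with a smallest adjusted p of 0.619 (limma).

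From viewpoint 147.9, piece 4, which holds the starts of 15 protein-coding genes, among them Plekhg5, Tnfrsf25, Espn, Icmt and Chd5, received 1.23% and 1.12% of the reads in E71 and E98 and 1.09% and 1.84% in E117 and E118. The groups overlapped here. Piece 6, without a protein-coding start, received 0.0993% and 0.128% against 0.0744% and 0.0937%, and was the lowest of the 10 pieces in E71, E117 and E118 but not in E98. Its groups did not overlap, with a log2 difference of 0.43 and an adjusted p of 0.805 (limma).

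Piece 2, which also holds no protein-coding start, had the highest log2 difference from viewpoint 147.9. It received 1.29% of the reads in E71 and 0.451% in E98, against 0.274% and 0.307% in the controls. The groups did not overlap, and the log2 difference of 1.40, which leans on E71, had an adjusted p of 0.279 (limma). From viewpoint 148.9, piece 4 received 0.112% and 0.116% against 0.283% and 0.441%, and piece 7, with the single start Ajap1, received 0.183% and 0.116% against 0.0104% and 0.0736%. Neither piece overlapped between the groups, and the adjusted p was 0.391 for both (limma). Of all 10 pieces, 5 had groups that did not overlap at viewpoint 147.9, 3 at 148.9 and 2 at 155.5. Over the 3 viewpoints together, 0 of 10 pieces passed the threshold of an adjusted p of 0.05 in limma (0.0% called), with a smallest adjusted p of 0.646 and a smallest unadjusted p of 0.0711.

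**Figure D2:**
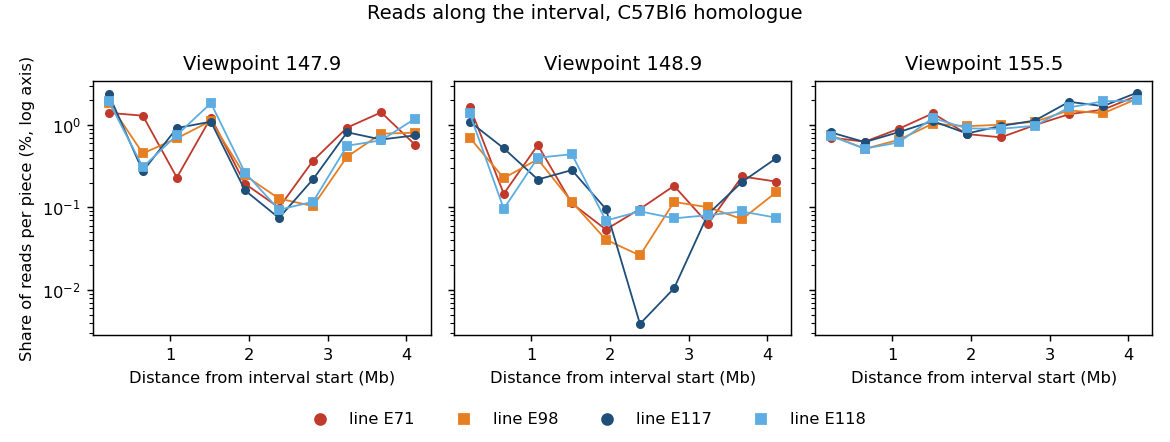
Share of C57Bl6 reads in each of 10 equal pieces of the interval (percent, log axis) against the distance of its middle from the interval start in Mb, for the 4 lines at each viewpoint. The lines run together at viewpoint 155.5, and at 148.9 E117 falls to 0.00387% in piece 6 and 0.0104% in piece 7.

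Reads were also scaled to RPM. For windows around gene starts, RPM was the number per 1e6 reads outside the zone. For the other 80 kb windows it was the number per 1e6 reads in tested windows, scaled further by the TMM factor of each library. RPM of gene windows and of other windows are therefore not on the same scale. Log2 values were correlated between lines over the windows of the interval. At viewpoint 147.9 the correlation was 0.54 between the +DBl6 lines and 0.60 between the +Bl6 lines over 51 windows, and 0.47 to 0.77 between lines of different groups. At 148.9 these values were 0.38, 0.51 and 0.26 to 0.58 over 47 windows, and at 155.5 they were 0.46, 0.76 and 0.45 to 0.69 over 54 windows. The ranges within and between the groups overlapped at each viewpoint. The windows share the viewpoint and the fall-off with distance, so these correlations are given as a description.

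The 5 interval genes with the highest mean RPM in the 80 kb around their start were, from viewpoint 147.9, Errfi1, Plekhg5, Tnfrsf25, Zbtb48 and Klhl21. Errfi1 received 2718 and 4596 RPM in E71 and E98 against 8451 and 4663 in E117 and E118, and the groups did not overlap. Plekhg5, which encodes a guanine nucleotide exchange factor, received 3581 and 3645 RPM against 3691 and 7100, which did not overlap either, by a gap between E98 and E117 only. Tnfrsf25, which encodes the death receptor DR3, received 2666 and 3267 RPM against 4833 and 5671, and E71 and E98 were again the lower lines. The values of Zbtb48, which encodes a zinc finger protein that binds telomeres, and of Klhl21 overlapped between the groups.

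Errfi1 was also first among the interval genes from viewpoint 148.9, and there its groups overlapped. It received 7152 and 1966 RPM in E71 and E98 against 2407 and 3679 in the controls, with E71 the highest and E98 the lowest of the 4. Gm13090, Park7, Tnfrsf9 and Zbtb48 followed, and all 4 overlapped between the groups. Park7 and Tnfrsf9 start next to each other and share their window, with 2270 and 1233 RPM against 1957 and 1877.

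From viewpoint 155.5 the leading interval genes were A430005L14Rik, Dffb, BC046331, Megf6 and Mmel1. Dffb, which encodes the DNA-cutting subunit of the apoptotic nuclease, received 5548 and 3881 RPM against 4275 and 5085, and BC046331 starts beside it and has the same values. Mmel1, which encodes a neprilysin-like metallopeptidase, received 3517 and 4018 RPM against 4328 and 6006, and its groups did not overlap, while those of the other 4 did. Over the 3 viewpoints, 4 of the 15 entries of interval genes had groups that did not overlap. The same held for 33.3%, 31.4% and 34.9% of all gene windows with enough reads at viewpoints 147.9, 148.9 and 155.5. The share over all genes was counted on TMM-scaled RPM, and that of the entries was not. Both shares were near each other but are not on the same scale. All 47 interval genes entered a fit of gene windows across the viewpoints (edgeR quasi-likelihood, 916 of 1345 genes tested). Of them 17 had a higher and 30 a lower fitted value in +DBl6, with a median log2 difference of -0.18 against -0.09 over all genes tested. No gene window was called, in the interval or elsewhere (0.0% called). Unadjusted p-values under 0.05 were found for 15 genes, 2 of them in the interval, and DESeq2 called 2 genes on the far part of the chromosome, which are given further on.

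The balance between near and far contacts of the intact copy differed between the groups in the fit across viewpoints, and the values of both groups lay apart at each viewpoint. The share of reads at 20 to 100 kb from the viewpoint fragment was higher in +DBl6. It was 20.5% and 21.4% in E71 and E98 against 14.01% and 16.4% in E117 and E118 at viewpoint 147.9. At 148.9 it was 32.5% and 29.2% against 19.2% and 23.4%, and at 155.5 it was 25.8% and 30.2% against 21.5% and 25.2%. Both deletion lines lay above both control lines at each viewpoint, though at 155.5 the gap was only that between 25.8% and 25.2%. The fitted ratio was 1.34 with a 95% interval of 1.19 to 1.51 (limma over 4 distance bands, adjusted p = 9.08e-05, higher in 6 of 6 same-batch pairs). In fits of single viewpoints the adjusted p was 0.0100 at 147.9, 0.0599 at 148.9 and 0.181 at 155.5 (limma), so only viewpoint 147.9 passed alone.

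The share of reads over 10 Mb away moved the other way. It was 30.8% and 33.8% in E71 and E98 against 42.6% and 37.1% in E117 and E118 at viewpoint 147.9. At viewpoint 148.9 it was 11.3% and 12.5% against 21.8% and 15.3%, and at 155.5 it was 38.1% and 36.8% against 43.2% and 39.2%. Again the groups did not overlap at any viewpoint, and E117 was the farthest from the deletion lines each time. The fitted ratio was 0.783 with a 95% interval of 0.695 to 0.884 (limma, adjusted p = 0.000479, lower in 6 of 6 pairs). Alone, viewpoint 147.9 passed with an adjusted p of 0.0466, and 148.9 and 155.5 had 0.0599 and 0.447 (limma). Without E117 the log2 difference across viewpoints was -0.21 in place of -0.35, with an adjusted p of 0.0392 (limma).

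Of the 4 bands, 2 passed the threshold (50.0% called). The bands at 0.1 to 1 Mb and 1 to 10 Mb had fitted ratios of 1.05 and 0.901 with adjusted p-values of 0.453 and 0.115 (limma). When reads in the interval were left out, the band at 1 to 10 Mb passed too, with a ratio of 0.869 and an adjusted p of 0.0236 (limma). Shares of 1 library add up to 100%, so a higher near share and a lower far share are not separate results. With the 3 libraries of a line averaged first, the adjusted p was 0.0313 for the near band and 0.0375 for the far one (limma on 4 line means), and the exact permutation p over the 4 lines was 0.333 for each. The size was larger in the column pair, with log2 differences of 0.52 and -0.53, than in the bead pair, with 0.32 and -0.17. Counting captured fragments in place of reads left 0 bands past the threshold, with adjusted p-values of 0.0791 for both (limma), a log2 difference of 0.60 in place of 0.42 for the near band and one of -0.18 in place of -0.35 for the far band. With fragments capped at their 99th percentile the near band had a log2 difference of 0.72 and an adjusted p of 0.0347. Without E98 the adjusted p of the far band was 0.0571. With 100 kb around the viewpoint left out, the far share still differed, by a log2 difference of -0.23 with an adjusted p of 0.0221 (limma).

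The lower number of captured fragments in +DBl6, in 6 of 6 pairs, moved with this shift. At viewpoints 148.9 and 155.5 only, so did the share of reads inside the 20 kb zone that was left out. This share was 84.6% and 84.9% in E71 and E98 against 51.7% and 76.2% in E117 and E118 at 148.9. It was 46.3% and 54.7% against 33.1% and 37.5% at 155.5, and the groups overlapped at neither. At 147.9 it was 51.6% and 61.0% against 53.6% and 50.8%, with overlap. The part of either in the shift was not tested. The other homologue of the same cells also moved with it. To compare both copies, reads in the interval were left out of every library. On the 129S5 copy, the near share was 22.2% and 22.6% in Df of E71 and E98 against 17.5% and 17.9% in +129 of E117 and E118 at viewpoint 147.9. At viewpoint 148.9 it was 30.9% and 27.2% against 16.9% and 22.1%. At 155.5 it was 29.7% and 37.1% against 28.2% and 29.9%, and here the groups overlapped.

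The near share rose by a log2 difference of 0.41 on the C57Bl6 copy and 0.37 on the 129S5 copy (limma, adjusted p = 8.11e-05 and 0.00985). The difference of both changes was 0.04, with a 95% interval of -0.06 to 0.15 (adjusted p = 0.399). The far share changed by -0.36 on the C57Bl6 copy and by -0.24 on the 129S5 copy, where the adjusted p was 0.0940. Here the difference of both changes was -0.12, with a 95% interval of -0.21 to -0.04 (limma, adjusted p = 0.0446). This comparison of both copies was chosen after the bands had been seen, and its p-values treat the libraries of a line as separate samples. The deletion itself shortens the distances across the interval on the 129S5 copy, and the lines and the deletion cannot be told apart with 2 lines a group.

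**Figure D3:**
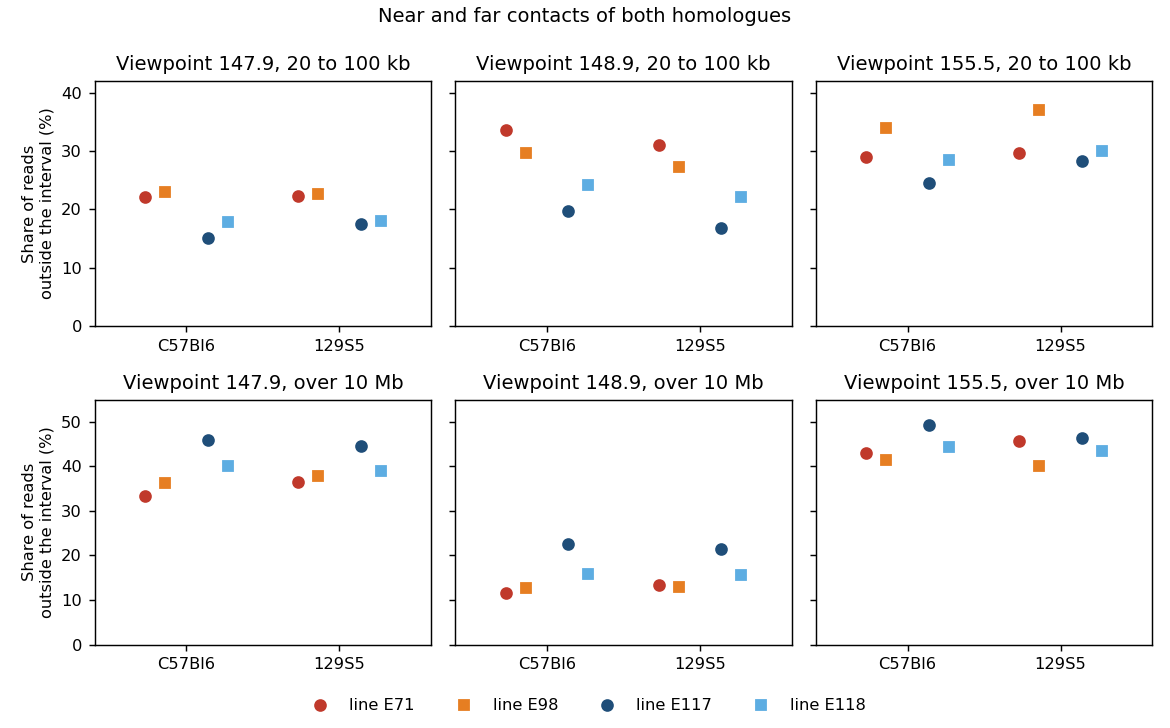
Share of reads at 20 to 100 kb (top) and over 10 Mb (bottom) from the viewpoint fragment, in percent of reads outside the interval, on the C57Bl6 and 129S5 copies of the 4 lines. The deletion lines E71 and E98 lie above the control lines in the near band of the C57Bl6 copy and below them in its far band at all 3 viewpoints, and on the 129S5 copy they overlap in both bands at viewpoint 155.5.

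By region of the chromosome, the regions that fell lay more than 5 Mb upstream of the interval. Chromosome 4 was divided into 9 regions, and 5 of them passed the threshold, each lower in +DBl6 (55.6% called). The fitted ratios were 0.831 at 5 to 10 Mb before the interval, 0.810 at 10 to 20 Mb, 0.811 at 20 to 50 Mb, 0.710 at 50 to 100 Mb and 0.750 beyond 100 Mb, with adjusted p-values of 0.0268 to 0.0406 (limma). The share at 10 to 20 Mb was 6.51% and 6.82% against 7.93% and 8.401% from viewpoint 147.9, 3.68% and 3.92% against 5.66% and 4.17% from 148.9, and 4.95% and 4.56% against 5.94% and 5.48% from 155.5. The groups of this region did not overlap at any viewpoint, and it was lower in 6 of 6 pairs.

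The most distant regions rested more on single lines. At 50 to 100 Mb, viewpoint 148.9 gave 2.38% and 2.34% in E71 and E98 against 6.00% in E117 and 2.95% in E118. At viewpoint 147.9, E71 was the lowest at 4.65%, with 7.41% in E98 against 9.94% and 7.38% in the controls. None of the 5 calls held with the line as a random block (limma, adjusted p 0.0622 to 0.0958), or when E71, E98 or E117 was left out, and without E118 there were 4 calls. Without E117 the log2 difference was -0.22 in place of -0.49 at 50 to 100 Mb and -0.26 in place of -0.42 beyond 100 Mb, and without E118 it was -0.77 at 50 to 100 Mb. With 100 kb around the viewpoint left out in place of 20 kb, 0 regions passed, and the log2 differences of the 5 regions ran from -0.14 to -0.37. Without E118 the region at 5 to 10 Mb was the one that lost its call (adjusted p = 0.0523), and with captured fragments counted in place of reads 0 regions passed, and that region had a log2 difference of 0.08.

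No difference of the flanks passed the threshold. The upstream flank had a fitted ratio of 0.940 with a 95% interval of 0.809 to 1.09, and the downstream flank one of 1.03 with 0.8802 to 1.21 (limma, adjusted p = 0.517 and 0.694). From viewpoint 147.9 the upstream flank received 12.5% and 12.3% in E71 and E98 against 13.2% and 15.5% in E117 and E118, and the downstream flank 3.95% and 4.32% against 3.47% and 4.23%. From viewpoint 155.5 the upstream flank received 1.56% and 1.31% against 1.77% and 1.501%, with overlap. Without E117 the log2 difference of the downstream flank was -0.10 and not 0.04. The groups did not overlap for the first of these shares and overlapped for the second. The flank that holds the viewpoint itself received 81.9% and 82.7% against 71.5% and 78.6% from 148.9, and 46.4% and 48.5% against 39.6% and 45.0% from 155.5, without overlap but with adjusted p-values of 0.757 and 0.379 (limma). Viewpoint 147.9 lies in the region at 2 to 5 Mb upstream. From this viewpoint the region received 38.8% and 38.1% against 26.5% and 29.1%, without overlap (limma, adjusted p = 0.0765). Its log2 difference was 0.47 from 147.9, -0.06 from 148.9 and -0.15 from 155.5. For no region did a difference between viewpoints pass the threshold (limma F test, adjusted p of 0.470 or more).

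**Figure D4:**
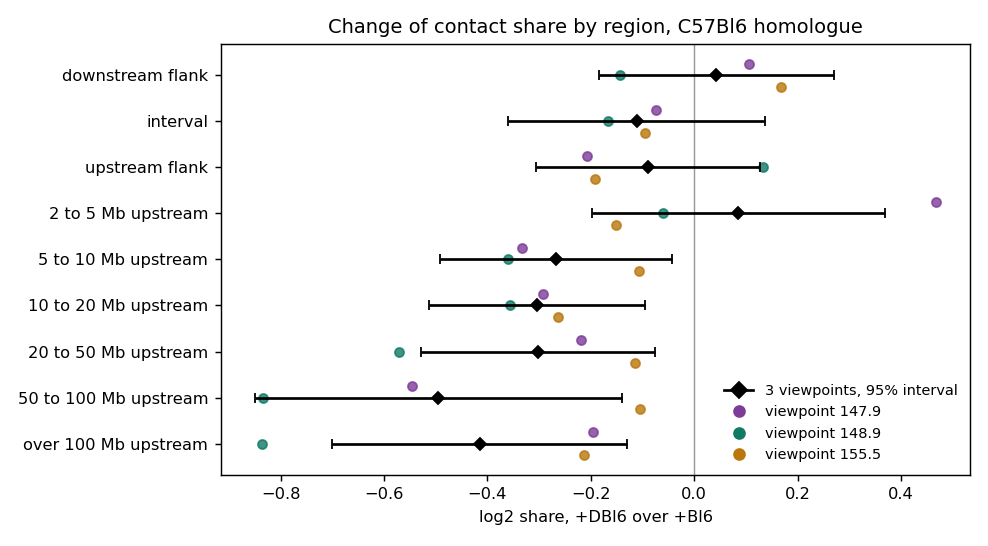
Log2 ratio of the share of C57Bl6 reads in +DBl6 over +Bl6 for 9 regions of chromosome 4, with diamonds and 95% intervals for the fit across the 3 viewpoints and points for each viewpoint. The intervals of the deleted segment, both flanks and the region at 2 to 5 Mb span 0, and the 5 regions more than 5 Mb upstream lie below it.

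At a finer scale, windows of 80 kb were tested where 10 reads or more were found in 50% or more of the fitted libraries. From viewpoint 147.9, edgeR called 4 of 988 windows, all higher in +DBl6 (0.405% called), and from 148.9, 2 of 620, also higher (0.323% called). The direction of the calls depended on the tool, since DESeq2 called 13 windows higher and 8 lower in +DBl6 at 147.9 and 4 higher and 8 lower at 148.9. From viewpoint 155.5, edgeR called 0 of 1079 (0.0% called). There, 50 windows had an unadjusted p under 0.05 in edgeR and 69 in DESeq2, which called 0 too. None of the 6 windows called by edgeR lay in the interval. With 2 lines a group, a count of 0 does not show that no window differed.

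Of the calls, 3 lie beside the viewpoint. The counted part of the window at 147920001 lies in the near band, and those at 147840001 and 148960001 reach past its limit of 100 kb. RPM of these windows is TMM-scaled. The window chr4:147920001-148000000, which surrounds viewpoint 147.9 and overlaps Mtor, Exosc10, Srm, Masp2 and Tardbp, held 114753 and 132622 RPM in E71 and E98 against 50861 and 72089 in E117 and E118. Its neighbour chr4:147840001-147920000, over Mtor and Angptl7, held 126653 and 135664 RPM against 56780 and 96275. The groups did not overlap in either window, and every library had reads on all 5 fragments counted in the first and all 26 in the second.

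The log2 differences were 1.01 and 0.78 with adjusted p-values of 0.00333 and 0.0422 (edgeR quasi-likelihood). Mtor encodes the kinase of the mTOR complexes and Tardbp the RNA-binding protein TDP-43. From viewpoint 148.9, the window chr4:148960001-149040000 over Clstn1 and Pik3cd, which encode calsyntenin 1 and a catalytic subunit of phosphoinositide 3-kinase, held 222159 and 217641 TMM-scaled RPM against 63610 and 114019. The log2 difference was 1.31 with an adjusted p of 0.000188, and all 17 fragments had reads in every library. Only these 3 windows stayed called in edgeR when the batch of purification entered the model (adjusted p = 1.04e-05, 0.00056 and 0.000343). DESeq2 gave them adjusted p-values of 0.342, 0.534 and 0.870. With reads scaled by library total in place of TMM, their log2 differences were smaller, at 0.81, 0.59 and 0.93 (edgeR). With 100 kb around the viewpoint left out, the window at 147840001 had a log2 difference of 0.89 (edgeR, adjusted p = 0.0270). The window at 148960001 then had a log2 difference of 0.68 (edgeR, adjusted p = 0.984). The count of 4 calls at viewpoint 147.9 became 0, 1, 0 and 2 without E71, E98, E117 and E118, and the 2 calls at 148.9 became 0, 0, 1 and 5.

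The other 3 called windows lay over 10 Mb away and rested mainly on 1 fragment of E71 each. In chr4:110000001-110080000, over Elavl4 and Agbl4, 225 of the 227 reads of E71 lay on 1 fragment, and the window held 0 reads in E98, 22 in E117 and 9 in E118. E98 was thus below both controls, so this window had no common direction in the 2 pairs of lines. In chr4:13200001-13280000, which overlaps no protein-coding gene, 100 of the 114 reads of E71 lay on 1 fragment, and the other lines held 17, 1 and 2 reads in the window. In chr4:86240001-86320000, over Haus6 and Plin2, all 353 reads of E71 lay on 1 fragment in Plin2, which encodes a lipid droplet protein, against 24 reads in E98 and 0 in both controls. The reads of E98 in the windows at 13200001 and 86240001 lay on other fragments.

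These fragments had 0 reads in E98, E117 and E118. Their first 40 bases on the plus strand of NCBIM37 are printed because they held most of the E71 reads in the 3 far windows, with the HindIII site in capitals.
Fragment in the window at 110000001: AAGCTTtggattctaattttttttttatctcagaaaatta
Fragment in the window at 13200001: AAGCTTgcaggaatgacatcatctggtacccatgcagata
Fragment in the window at 86240001: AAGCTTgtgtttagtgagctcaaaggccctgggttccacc
They start at chr4:110040371-110040410, chr4:13241690-13241729 and chr4:86295097-86295136. The Df library of E71 held 7, 1 and 9 reads on them. None of these windows was called in edgeR when purification was in the model, while DESeq2 gave adjusted p-values of 0.589, 0.000252 and 0.000486 in the order printed.

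No window was called across the 3 viewpoints, where 767 windows were tested in 1 fit (0.0% called). There were 22 windows with an unadjusted p under 0.05 in edgeR and 66 in DESeq2. None changed differently between viewpoints either (0.0% called), with 50 unadjusted p-values under 0.05 in edgeR and 90 in DESeq2, which called 0. Of the 53 windows of the interval, 31 had a higher and 22 a lower fitted value in +DBl6. Their median log2 difference was 0.10 (quartiles -0.46 and 0.79), beside -0.27 over all 767. An unadjusted p under 0.05 was found for 5 of them (9.43%), beside 2.87% of all windows, with a smallest adjusted p of 0.997 (edgeR). The gene windows of the interval leaned the other way, with a median of -0.18. None of the 152 bins of 1 Mb was called (0.0% called), with 6 unadjusted p-values under 0.05 in edgeR and 15 in DESeq2, which called 0 as well.

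DESeq2 called 1 window and 2 gene windows across the viewpoints, each lower in +DBl6, and their edgeR adjusted p-values were 0.997, 0.987 and 0.987. The window chr4:142080001-142160000 overlaps no protein-coding gene. The genes were Dpy19l4 and Aqp7, an aquaporin gene that transports glycerol. Aqp7 received 0 and 5.51 RPM in E71 and E98 against 486 and 475 in E117 and E118 from viewpoint 147.9, and 0 and 43.5 against 738 and 415 from 148.9. From viewpoint 155.5 the values were 273 and 144 against 659 and 457. The groups did not overlap for Aqp7 at any of the viewpoints. Of all gene windows, 33.3%, 31.4% and 34.9% did not overlap at viewpoints 147.9, 148.9 and 155.5, counted on TMM-scaled RPM and not on the RPM printed here. Aqp7 was picked by its call in these same libraries, so its lack of overlap is a description and no added support.

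Window by window, the differences of 1 pair of lines were not those of the other. The log2 ratio of E71 over E117 correlated with that of E98 over E118 at 0.07 over 988 windows from viewpoint 147.9, at -0.08 over 620 from 148.9 and at -0.00 over 1079 from 155.5. The sign was shared by 47.7%, 46.0% and 48.4% of the windows. In the interval the correlations were -0.04, 0.12 and 0.12 over 51, 47 and 54 windows. These pairs share no library, and windows of 1 library share its depth.

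**Figure D5:**
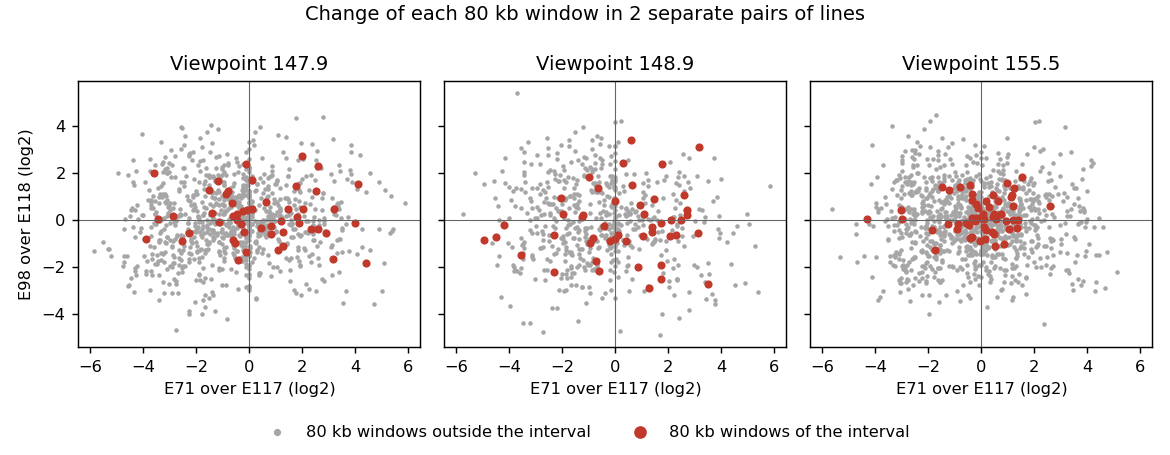
Log2 ratio of TMM-scaled RPM (with 50 added) of E98 over E118 against that of E71 over E117 for each 80 kb window tested, at each viewpoint, with the windows of the interval in red. The points form round clouds, with correlations of 0.07, -0.08 and -0.00 over all windows.

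The viewpoints were little alike over the whole chromosome either. Their mean over both pairs correlated at 0.06 between viewpoints 147.9 and 148.9 over 562 windows, at -0.01 between 147.9 and 155.5 over 799 windows and at 0.05 between 148.9 and 155.5 over 534 windows. Within the interval the same values were 0.40 over 47 windows, -0.12 over 51 and 0.20 over 47. The viewpoints of a line share its cells and template, so these are descriptions.

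Among the flank genes with most reads, several next to the viewpoint lay higher in +DBl6 in RPM without TMM, and the nearby Pik3cd did not. The contrast may depend on this scale. In the edgeR fit across viewpoints, which used TMM, the log2 difference was 0.60 for Pik3cd and 0.10 for Clstn1. Clstn1, 0.0519 Mb from viewpoint 148.9, received 193978 and 163745 RPM against 87084 and 115270 in its gene window, without overlap. Pik3cd, 0.168 Mb away, received 123390 and 132540 RPM against 130785 and 127238. Plekhn1 and Klhl17, which share a window near viewpoint 155.5, received 130562 and 132019 RPM against 98737 and 115835, again without overlap. 9430015G10Rik, near the same viewpoint, received 127279 and 169767 RPM against 116219 and 136086, with overlap.

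Flank genes farther from their viewpoint went in either direction. Pex14, which encodes a peroxisomal import factor, received 16964 and 15672 RPM against 21180 and 24568 from viewpoint 147.9, without overlap. Pik3cd seen from viewpoint 155.5, across the interval, received 2504 and 903 RPM against 561 and 174, without overlap, and Car6, a secreted carbonic anhydrase gene, 762 and 1807 against 374 and 450. The windows of Pik3cd and Car6 at this viewpoint held between 24 and 450 reads a library. Over the viewpoints, 5 of the 9 entries of upstream flank genes and 4 of the 9 of downstream flank genes had groups that did not overlap. The other entries overlapped. Of all gene windows with enough reads, 33.3%, 31.4% and 34.9% did not overlap at viewpoints 147.9, 148.9 and 155.5. These shares were counted on TMM-scaled RPM, and those of the flank entries were not. In the fit across viewpoints, the adjusted p was 0.987 for each of Pex14, Pik3cd, Car6, Clstn1, Plekhn1 and Klhl17 (edgeR).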

How the data were processed

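The deposited files hold read counts per HindIII fragment of chromosome 4. According to the methods, the authors assigned read pairs to a homologue by a polymorphism in the first read and aligned 30 bases of the second with Bowtie to mm9, with up to 3 mismatches and unique hits only, and the deposited counts are not normalized. Fragment ends matched all 48319 HindIII sites of NCBIM37. Fragments within 20 kb of the fragment with most reads at a viewpoint were left out, and the rest were summed into 80 kb windows, 1 Mb bins, 80 kb around gene starts (GENCODE vM1) and regions. Counts were tested with edgeR 4.0.16 (TMM, quasi-likelihood), log2 shares with limma 3.58.1, and lines by exact permutation, with Benjamini-Hochberg adjustment over all features of a fit and a threshold of 0.05. P-values across viewpoints treat the 3 libraries of a line as separate samples unless a line is named as block. The tests were checked on simulated counts. Zone, window size, scaling, filter, tool (DESeq2 1.42.0), batch, line and the weight of single fragments were varied. Named windows were up to 3 called per fit with the smallest adjusted p and 1 sign in both purification batches (column kit or beads, for the pooled viewpoint PCR products). Named genes were the 5 interval genes and 3 genes of each flank with the highest mean RPM at a viewpoint, and called gene windows. The window over Elavl4 and Agbl4 and the DESeq2 calls fall outside this rule and were chosen after their values were seen, as was the comparison of both homologues. The viewpoints, regions and lists were chosen with earlier results of these data known. The interval limits were those given for this comparison, and a search on the Df and +129 libraries found the same end and a start 2.8 kb earlier. PCR reads without molecular identifiers are not independent molecules, so intervals of shares cover counting error only.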

Additional observations from a re-analysis of the deposited data

Results flagged for a closer look

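The share of reads over 10 Mb from the viewpoint changed more on the C57Bl6 copy than on the 129S5 copy of the same cells, by a log2 difference of changes of -0.1238 (95% interval -0.21 to -0.04, limma, adjusted p = 0.0446). It stands out because the same contrast of deletion lines with control lines gave different sizes on the 2 copies. Among the 4 distance bands it was the only difference between the copies that passed the threshold. For the near band the difference of changes was 0.04 with an adjusted p of 0.399. In E71 the far share was 33.4%, 11.7% and 42.9% on the C57Bl6 copy against 36.4%, 13.4% and 45.6% on the 129S5 copy, by viewpoint. In E98 it was 36.2%, 12.8% and 41.4% against 37.7%, 12.9% and 40.1%, so the copies were closer and changed order at 155.5. In both control lines the C57Bl6 share was the higher at each viewpoint. The fit treats the 3 libraries of a line as separate samples, and was not repeated by line. The 129S5 copy of the deletion lines lacks the interval, so distances across it are shorter. Viewpoints 147.9 and 148.9 lie 7.652 Mb and 6.708 Mb from the chromosome end, so their contacts over 10 Mb do not cross the interval. Those of viewpoint 155.5 do. The part of the shorter distances in the difference was not tested.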

How the results depend on the processing

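Of 329 recomputed values, 193 kept their direction and side of the threshold or stayed within the tolerance for a count, 88 lost a call, 41 counts moved and 7 values changed sign. The windows called at viewpoint 147.9 (4) became 21 with DESeq2, 2 without the filter or with 100 kb left out around the viewpoint, 1 with fragments capped or with the 129S5 rule, 0 with captured fragments or with fragments under 5 reads set to 0, and 0 to 2 without 1 line. Those at 148.9 (2) became 12 with DESeq2, 1 with total-read scaling, without the filter or by the Mann-Whitney rule, 0 with 200 kb windows, captured fragments, fragments under 5 reads at 0, capping or the wider zone, and 0 to 5 without 1 line. At 155.5 (0) there was 1 with captured fragments and 6 by the Mann-Whitney rule. That rule compares fragments of 1 library with those of 1 other in each pair, so fragments stand in for replicates, and +DBl6 captured fewer fragments in 6 of 6 pairs, so its calls support no difference. Across viewpoints (0), DESeq2 gave 1 window and 2 gene windows, and 200 kb windows gave 1 that differed between viewpoints.

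The interval share (log2 -0.11) became 0.25 with captured fragments, 0.0146 with the wider zone and -0.286 to 0.0634 without 1 line. Captured fragments gave 0.37 for the upstream flank (-0.09), 0.0847 for the region at 5 to 10 Mb (-0.27) and -0.54 for the window at 110000001 (5.81). The downstream flank (0.04) ranged from -0.10 to 0.18 without 1 line. The 5 called regions became 0 with line means, line as random block, captured fragments, capping or the wider zone, and 0 to 4 without 1 line. The 2 called bands became 0 with captured fragments and 1 to 3 without 1 line. The cause of these shifts was not tested.

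With purification as a replicate block, the windows called were 2 at viewpoint 147.9 and 1 at 148.9, and the block moved no other count by over 1.5 times. The samples of a block share a replicate number and a purification method. Over 80 kb windows, deviations of E71 and E117 from their group means correlated at 0.05, -0.04 and -0.05 at the 3 viewpoints. With 2 lines a group these values cannot show whether purification had an effect, and they do not cover the shares. Where a line was left out, the lone line was assumed to vary like the other group. The comparison of both homologues, the line means, the line block and the 129S5 rule were chosen after seeing the data. In the 3 far windows called by edgeR, most reads of E71 lay on 1 fragment.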

Other observations

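Within the interval, the mean log2 differences of +DBl6 and +Bl6 per 80 kb window correlated at 0.40 (Pearson) and 0.30 (Spearman) between viewpoints 147.9 and 148.9 over 47 windows, where 26 windows shared a sign. These libraries share their lines, so the value is a description.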
